A study of Populus trichocarpa with 24 samples.

Results

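A group of 304 of the 41335 loci in a gene table of black cottonwood, Populus trichocarpa, was read almost only in root among 5 dissected tissues. A locus was taken into the group when its mean level in root was at least 50 CPM (the count of a locus per 1000000 counts of its library) and at least 16 times the largest mean level of shoot tip, leaf, phloem and xylem. The members were thus chosen by the levels in root and those 4 tissues, and the comparison of root with them is given as a description, with no test. Laser-captured wood cells took no part in the choice.

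The study profiled RNA of major tissues and of wood cell types, with 8 groups of 3 libraries each. Shoot tip came from the uppermost internodes, leaf from young expanded blades, phloem from the inner face of the bark and xylem from the developing wood of stems without bark, all from greenhouse trees given as 6 months old. Root was primary root of young seedlings that had rooted in water, while their age is also labelled as 6 months, so tissue, growth medium and plant stage cannot be told apart in any contrast with root. Fiber cells, vessel cells and a mix of fiber, vessel and ray cells were cut from wood of 6-month-old trees by laser microdissection, and their RNA alone was amplified before sequencing, so amplification and capture cannot be told apart. No genotype, treatment or genetic change is given for any group, and nothing ties libraries to separate trees, so each p-value measures the spread between these libraries only.

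Roots take up water and mineral ions and pass them through a barrier of suberised cells into the vascular core. They also hold microbes and toxic ions at bay with secreted proteins and root-made metabolites. Many genes of uptake, of the barrier and of chemical defence are known in other plants to be transcribed mainly in root. The files do not pair identifiers with gene names, so no role can be given for any of the 304 loci, and the tissue labels were not checked against marker genes.

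Library totals ran from 5689642 to 30917688 counts, with the root libraries at 5689642, 6182471 and 11373245. Of all loci, 2848 had no count in any library. Levels are CPM on these totals and are not corrected for gene length, so levels of different loci show how much of a library each one took, not how many transcripts it made. Floors, where given, cover counting error only. Values after ± are an SD over libraries or an SE of a fit, which also hold the spread between libraries. Root replicate 3 stood apart from the other root libraries at many members, as described below. The number of members, the share of neighbours that are members and the longest run are also given without it. Levels, ratios and their spread are given with it.

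Among the 4926 loci with at least 50 CPM in root, the 304 members were 6.17%. Their mean root levels ran from 50.01 to 7326 CPM, with a median of 105 CPM and quartiles of 71.1 and 168 CPM. A level of 50 to 100 CPM was seen at 142 members, 100 to 200 CPM at 102, 200 to 500 CPM at 43, 500 to 1000 CPM at 14, and at least 1000 CPM at 3. The coefficient of variation over the 3 root libraries had a median of 22.3% and ran from 1.44% to 142%. Above the 50 CPM that the rule requires, which 4926 of all 41335 loci reached, most members thus stood at the lower levels. A few took a large share of the root counts.

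Summed over the 304 loci, the level was 59197, 58053 and 59261 CPM in the root libraries, which is 5.92%, 5.81% and 5.93% of their counts (mean 58837 ± 679 CPM, SD, n = 3). Shoot tip held 497, 339 and 346 CPM, leaf 440, 322 and 309 CPM, phloem 329, 298 and 185 CPM, and xylem 455, 454 and 361 CPM. The root total was thus alike in all root libraries, while the highest library of the 4 other tissues held 497 CPM. In mixed tissue, fewer cells of a type and less RNA per cell cannot be told apart. Each of the 304 loci had a count in every root library, and between 167 and 229 of them had a count in a library of the other tissues.

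**Figure D1:**
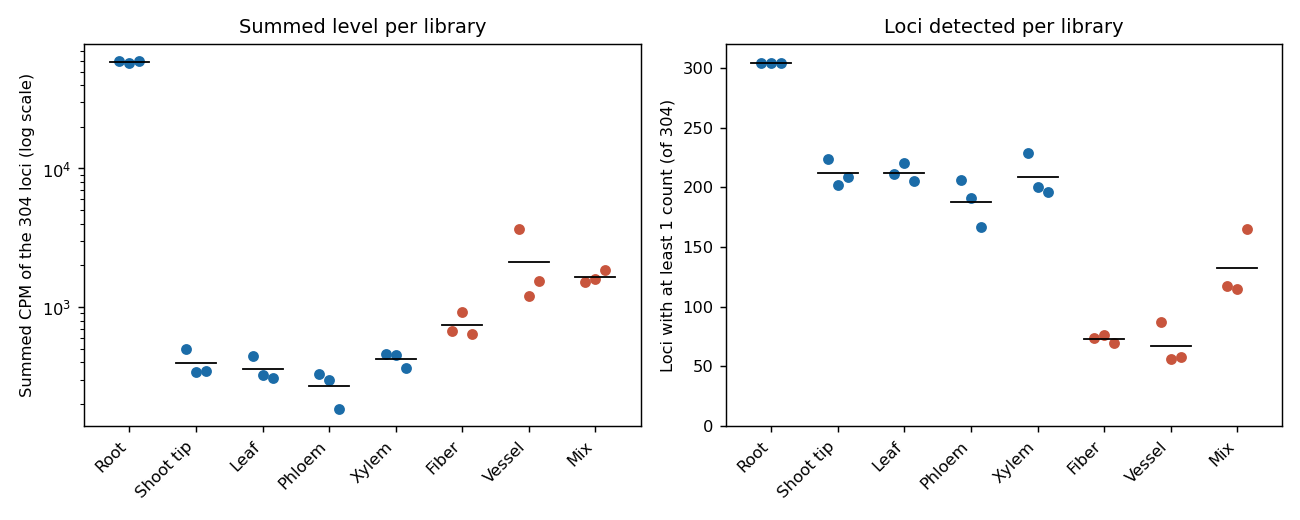
Left, summed CPM of the 304 loci in each library on a log axis. Right, number of the 304 loci with at least 1 count. Points are libraries (blue, dissected tissue; red, amplified laser captures) and bars are means of 3. Root libraries sit between 58053 and 59261 CPM, the other tissues between 185 and 497 CPM, and the captures between 638 and 3644 CPM with fewer loci detected.

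The member with the highest root mean, Potri.019G100000, stood at 8244, 7559.8 and 6176 CPM in root. Its next tissue was phloem at 24.2, 10.01 and 7.26 CPM, and the root mean was 530 times the highest other mean. It ranked 1 of all 41335 loci by mean root CPM and took 0.824%, 0.756% and 0.618% of the counts of the root libraries. This 1 locus held 13.9%, 13.0% and 10.4% of the summed level of the group in the root libraries. The 10 leading members together held 31.5%, 30.04% and 27.8%. The next member by level, Potri.013G131200, stood at 3221, 2923 and 2824 CPM in root and at 20.3, 19.8 and 16.8 CPM in shoot tip, a ratio of means of 158. At both loci every root library lay far above every library of the other tissues.

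At the 16-fold threshold the nearest members inside were Potri.006G115000 with a ratio of 16.04 and Potri.011G070100 with 16.06, and the nearest loci outside were Potri.016G102900 with 15.80 and Potri.005G036800 with 15.56. At the level threshold the nearest values were 50.01 CPM inside and 49.69 CPM outside. No gap in the values separates members from the loci next to them.

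The ratio of the root mean to the highest other tissue mean could be formed for 287 members. Its median was 85.9, with quartiles of 31.9 and 423. It lay between 16 and 32 at 72 members, between 32 and 100 at 79, between 100 and 1000 at 89, and at 1000 or more at 47. All 304 members had every root library above all 12 libraries of the other tissues, where the same held for 45.5% of the 4926 loci with at least 50 CPM in root. The rule had used this contrast, so nothing is read from that count. In 237 members the lowest root library was at least 16 times the highest library of another tissue. Among those 4926 loci only members can meet this stricter form of the rule, so it too is a description.

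**Figure D2:**
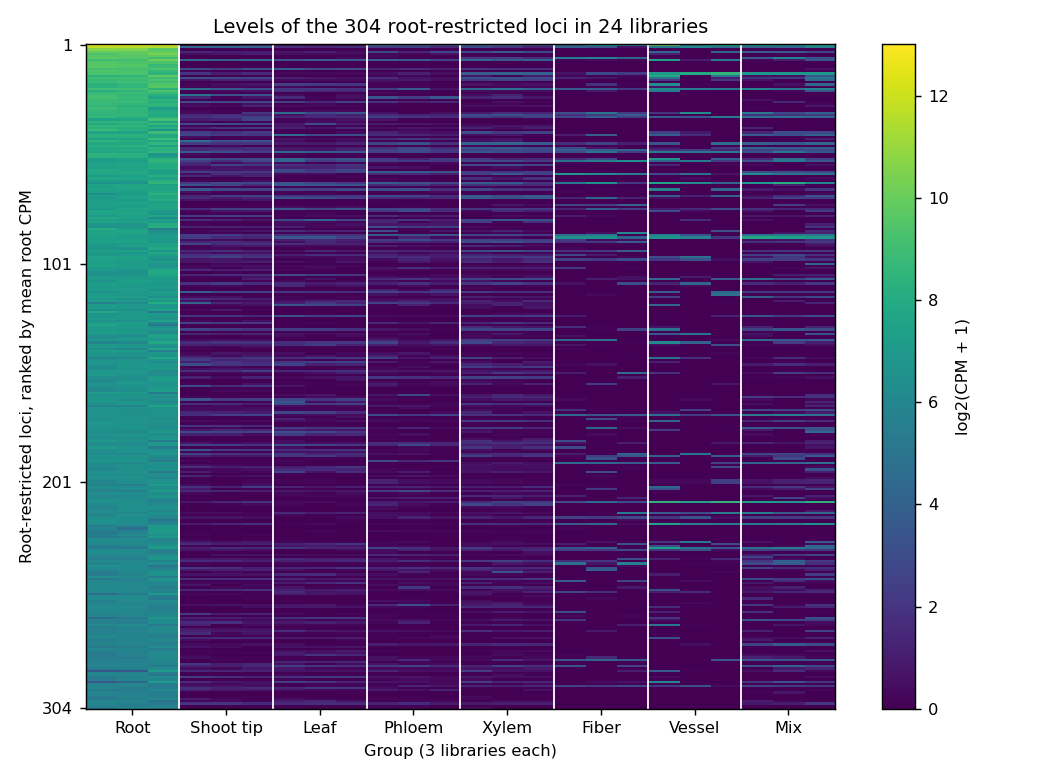
Level of each of the 304 loci (lines, ranked by mean root CPM) in each of the 24 libraries (columns, 3 per group), as log2(CPM + 1). The root columns are filled from top to bottom, the other tissues hold low values at part of the loci, and the captures show isolated bright cells at few loci.

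Another 17 members had no count in any of the 12 other tissue libraries, and 15 of them had none in any of the 21 libraries other than root. The root means of these 15 loci ran from 55.0 to 661 CPM, with a median of 102 CPM. The most abundant of them, Potri.006G058000, stood at 789.7, 767 and 426 CPM in root, and Potri.001G176200 at 811, 686 and 477 CPM. A floor of 3 counts over the pooled depth of the 21 libraries is 0.0106 CPM. Against that pooled floor, Potri.006G058000 was at least 62521-fold and Potri.001G176200 at least 62232-fold higher in root. A single tissue has less depth and a higher floor, so these folds are not bounds against any single tissue. They cannot be set beside the ratios to the highest other tissue mean. Of the 15 loci, 9 lay next to another member in the order of identifiers, some of them next to each other. Among the 293 members with a chromosome number, 66 (22.5%) lay next to another member.

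The choice was repeated with 1 replicate number left out of all 5 tissues, and the loci chosen were then read in the left-out libraries. Without replicate 1, 350 loci were chosen and 76.3% of them were at least 16-fold in the left-out libraries. Without replicate 2 the values were 316 loci and 89.9%, and without replicate 3 they were 293 loci and 90.8%. Root lay above the 4 other tissues in the left-out libraries at 99.7%, 100% and 95.2% of these loci. Root replicate 1 was the smallest root library. The share that root replicate 3 kept above the other tissues was the lowest of the 3.

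Root replicate 3 differed from the other root libraries at many members, both upward and downward. It was at least 2 times both others at 35 members (11.5%), where the background was 2.52% of loci with at least 50 CPM in root. It was at most 1/2 of both others at 21 members (6.91%), against a background of 0.609%. Root replicate 1 stood apart in this way at 0 members and root replicate 2 at 1. The median absolute log2 difference between replicates 2 and 1 was 0.14 over the members and 0.10 over all loci with at least 50 CPM, and between replicate 3 and the mean of the others it was 0.50 and 0.17. The root libraries entered the rule, so these are descriptions, and depth moved with them, since replicate 3 held 11373245 counts against 5689642 and 6182471. The part of depth, plants or handling in this difference was not tested.

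**Figure D3:**
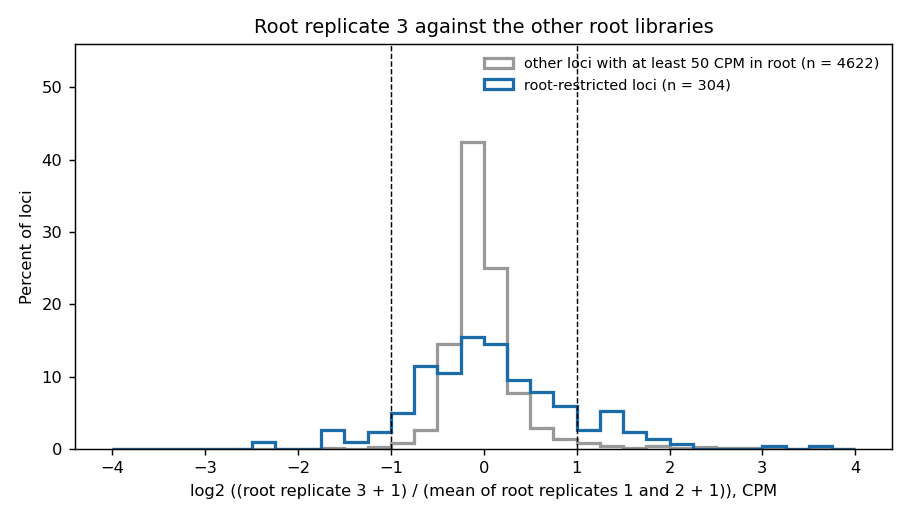
Distribution of the log2 ratio of root replicate 3 to the mean of root replicates 1 and 2 (1 CPM added to both), as percent of loci, for the root-restricted loci (blue) and for all other loci with at least 50 CPM in root (grey). Dashed lines mark a ratio of 2 in either direction. The root-restricted loci spread wider on both sides.

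The strongest upward case was Potri.017G135000, with 9.49, 10.03 and 141 CPM in the root libraries, so that replicate 3 was 14.4 times the mean of the others. The strongest downward case was Potri.001G006900, with 214, 129.9 and 33.1 CPM, a ratio of 0.193. Both were picked after their values were seen. Without root replicate 3 the first locus would not have reached 50 CPM, and the second would have stayed above it. Its identifier neighbour Potri.001G006800 followed the same course with 205, 127 and 32.3 CPM, and neither of these neighbours had a count in any library other than root.

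The loci that moved up in replicate 3 summed to 3316, 3505 and 9325 CPM in the root libraries, and those that moved down to 4331, 3497 and 1345 CPM. A count in the vessel captures was seen at 14 of the 35 upward loci and at 1 of the 21 downward loci, and a count in the mix captures at 28 and at 6. In shoot tip the numbers were 32 of 35 and 12 of 21. Of the 248 members in neither class, 95 had a count in vessel (38.3%), 149 in mix (60.1%) and 205 in shoot tip (82.7%). In vessel the upward class, at 40.0%, was thus near these other members. In mix (80.0%) and shoot tip (91.4%) it lay above them. The downward class was below them in vessel (4.76%), mix (28.6%) and shoot tip (57.1%), and in every other group outside root. The 3 vessel libraries held 977, 158 and 101 CPM of the upward class, and 0, 0 and 8.24 CPM of the downward class. No run of neighbouring members held loci of both classes. These classes were drawn after the values were seen and carry no test. With root replicate 3 left out of the choice, 281 loci met the rule, 265 of them members.

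Members often lay beside each other in the order of identifiers. The identifiers carry the chromosome and a running number, and 293 members carry a chromosome number while 11 are on unplaced sequence. Of the 586 neighbours of these members in identifier order, 80 were members themselves (13.7%), where members were 0.742% of all placed loci. Without root replicate 3 the share was 74 of 540 (13.7%). Identifier order was the only position used, since no coordinates of the build of the files were at hand.

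In all, 66 members formed 26 runs of adjacent identifiers, with 19 runs of 2 loci, 4 of 3, 2 of 4 and 1 of 8. Chromosome 1 held 44 members, 14.5% of the group against 11.5% of all loci, and chromosome 11 held 23, 7.57% against 4.11%. The members on chromosome 11 include the run of 8. Chromosomes 13 and 19 held 5 members each, 1.64% of the group against 3.91% and 3.24% of all loci.

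The longest run, from Potri.011G048100 to Potri.011G048800, held 8 loci whose root means ran from 73.3 to 193 CPM. In the 4 other tissues the highest mean of any of the 8 was 0.553 CPM, and the 8 loci had between 0 and 42 counts each over those 12 libraries. The next identifier, Potri.011G048900, stood at 26.2, 19.4 and 93.0 CPM in root with no count in the other tissues, and its mean of 46.2 CPM left it out of the group. The 2 identifiers after it were members again, Potri.011G049000 with 171, 179 and 297 CPM in root and Potri.011G049100 with 160.1, 156 and 239 CPM. The stretch therefore held 11 loci in a row that were read in root and hardly elsewhere, 10 of them members.

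All 11 loci of that stretch were highest in root replicate 3, at 5 of the 8 loci of the run by at least 2 times both other libraries. Potri.011G048400 stood at 144, 124 and 309 CPM and Potri.011G048600 at 57.5, 25.4 and 137 CPM. The spread between root libraries was thus shared along the stretch. Adjacent loci of the run had root counts of like size, with an overlap between 66.9% and 93.8%. Overlap is the smaller count of a pair in each library, summed, as a percent of the mean total of the pair. It does not measure shared reads. In fiber and in mix, 5 of the 8 loci had the same single count. That count recurred at every identifier from Potri.011G048400 to Potri.011G049200. The last of these is not a member and had no count in root. How far reads were counted at several of these loci was not tested. Without root replicate 3 the longest run was 5 loci.

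**Figure D4:**
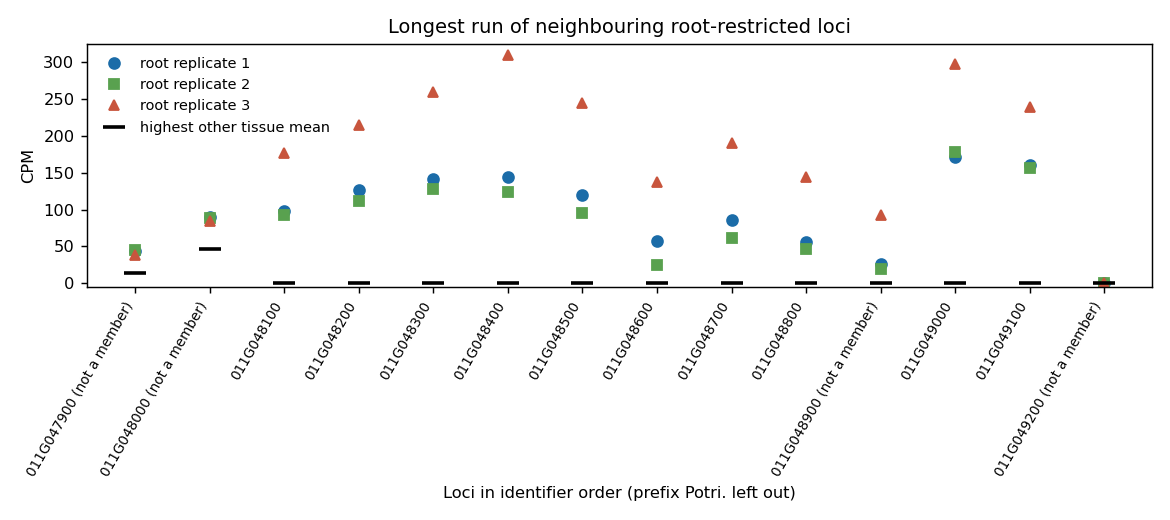
CPM in the 3 root libraries (blue circles, green squares and red triangles for replicates 1, 2 and 3) and the highest mean of the 4 other tissues (black bars) at consecutive identifiers on chromosome 11. From Potri.011G048100 to Potri.011G049100 the root values lie well above the bars, with replicate 3 highest at each locus. The loci on either side of the stretch are not members.

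The runs of 4 behaved differently from each other. At Potri.001G175900 to Potri.001G176200 the root means ran from 55.6 to 679 CPM, no other tissue mean passed 0.0273 CPM, and the root libraries lay close together or fell in replicate 3. At Potri.001G270300 to Potri.001G270600 the root means ran from 435 to 945 CPM and replicate 3 was the highest library at all 4 loci, from 309, 393 and 734 CPM at Potri.001G270300 to 323, 389 and 732 CPM at Potri.001G270600. At that run the means of the other tissues reached 3.80 CPM and those of the captures 25.1 CPM. The latter was the vessel mean of Potri.001G270600, which stood at 75.3, 0.1 and 0 CPM in the vessel libraries. It thus rested on vessel replicate 1.

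Neighbouring members can share reads where their sequences are alike, and no source used here says how such reads were counted. Of the 40 adjacent pairs of members, 27 had at least 20 counts outside root, and 5 of these had an overlap of at least 95% there. In root, 10 of the 40 pairs had an overlap of at least 95%. A high overlap means counts of like size, and sharing of reads was not tested. Over the 9 captures, 11 of the 142 members with at least 20 counts fell into 4 sets with identical counts in every library (7.75%, against 3.99% of all loci). The 3 loci from Potri.018G041400 to Potri.018G041600 were 1 such set, and another set ran from Potri.005G029200 to Potri.005G029800 with 4 loci. Members of such sets are not independent readings, and their own levels in the captures are uncertain.

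Outside root, the levels of the members among shoot tip, leaf, phloem and xylem were not fixed by the rule, which only caps them, and were tested. By CPM the highest of the 4 tissues was xylem at 90 of the 287 members with a count, shoot tip at 81, leaf at 66 and phloem at 50, and 146 of the 304 members were below 1 CPM in all 4. Median levels of the members were 0.294 CPM in shoot tip, 0.21 CPM in leaf, 0.136 CPM in phloem and 0.211 CPM in xylem.

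With edgeR's quasi-likelihood F test on all 15 tissue libraries, 201 of the 304 members differed among the 4 tissues with a log2 difference of at least 1 between some pair of tissues and a p adjusted by the Benjamini-Hochberg method below 0.05. The background was 70.1% of the 31308 loci tested. Called and highest in leaf were 66 members, 21.7% of the 304 (background 23.8%), and in xylem 62, 20.4% (19.8%). In shoot tip the numbers were 47, 15.5% (10.5%), and in phloem 26, 8.55% (16.0%). These backgrounds are shares of all loci tested, called or not. All 304 members entered this test, many of them only because their root counts carried them past the filter on low counts, so the count of calls is not read against the background. In a fit without the root libraries 149 members passed that filter and 132 were called.

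The clearest difference was at Potri.010G069000, which stood at 12.5, 17.2 and 15.2 CPM in xylem. Shoot tip held 3.04, 0.957 and 2.01 CPM, leaf 0.230, 0.226 and 0.244 CPM, and phloem 0.408, 1.25 and 0.433 CPM. The xylem libraries lay above all others of the 4 tissues, with a fitted log2 difference of 5.40 between the highest and the lowest tissue (edgeR quasi-likelihood F test, adjusted p = 3.32e-08). In root the locus stood at 611, 641 and 338 CPM.

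In leaf, Potri.017G118100 stood at 8.68, 4.40 and 5.61 CPM. Xylem held 4.74, 3.43 and 4.26 CPM, shoot tip 2.98, 3.08 and 1.82 CPM, and phloem 0.326, 0.235 and 0.217 CPM. Leaf and xylem overlapped, and the largest fitted difference was that with phloem, 5.05 on the log2 scale (edgeR quasi-likelihood F test, adjusted p = 1.56e-07).

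In phloem, Potri.004G205500 stood at 13.3, 12.4 and 8.88 CPM. Shoot tip held 3.71, 3.08 and 3.16 CPM, leaf 4.99, 3.46 and 4.70 CPM, and xylem 4.11, 3.36 and 4.18 CPM. Phloem lay above the rest with no overlap, and the other 3 tissues overlapped each other, with a largest log2 difference of 1.93 (edgeR quasi-likelihood F test, adjusted p = 6.89e-07).

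In shoot tip, Potri.011G070100 stood at 9.45, 3.61 and 3.64 CPM. Leaf held 2.23, 2.33 and 2.99 CPM, phloem 0.163, 0.235 and 0.108 CPM, and xylem 0.468, 0.0730 and 0.246 CPM. Shoot tip replicate 1 was far above the other shoot tip libraries, which still lay above leaf, and the fitted log2 difference was 4.84 (edgeR quasi-likelihood F test, adjusted p = 3.35e-07). When that library was left out the fit placed leaf highest, with a log2 difference of 4.30.

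The other loci that the rule for named loci gave for this test were Potri.016G106000, which in the 4 tissues was counted in shoot tip at 2.98, 2.45 and 1.72 CPM and hardly elsewhere, and Potri.005G081100, in leaf at 6.60, 3.07 and 5.49 CPM. Neither had a count in phloem or xylem. Potri.005G240100 stood at 3.49, 4.02 and 2.71 CPM in xylem and at no more than 0.549 CPM in any library of shoot tip, leaf and phloem. Potri.T134000 stood at 3.43, 6.88 and 3.25 CPM in phloem and at 4.68, 4.53 and 3.77 CPM in xylem, so that these tissues overlapped.

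In the laser captures fewer members were read than in the dissected tissues. Fiber libraries had a count at 74, 76 and 70 of the 304 members, vessel libraries at 87, 56 and 58, and mix libraries at 117, 115 and 165. No count in any of the 9 captures was found at 106 members, and 21 had a count in all 9. A count in all 3 fiber libraries was seen at 12.2% of members and 39.8% of all loci, in all 3 vessel libraries at 9.21% and 33.9%, and in all 3 mix libraries at 29.9% and 58.6%. In xylem tissue the shares were 55.9% and 71.0%. The share was thus lower for members than for all loci in each of these groups, and the low level of members in xylem was set by the rule.

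The summed level of the members was above that of xylem tissue in every capture. The rule had capped xylem and not the captures, so this contrast is a description only. Fiber libraries held 676, 929 and 638 CPM, vessel libraries 3644, 1196 and 1535 CPM, and mix libraries 1523, 1593 and 1845 CPM, against 455, 454 and 361 CPM in xylem. Vessel replicate 1 was highest, and 1013 of its 3644 CPM came from Potri.019G100000, which stood at 1013, 47.0 and 219 CPM in vessel. The 5 leading members of each group held 38.9% of the mean sum in fiber, 54.4% in vessel and 49.3% in mix. In xylem they held 18.5%. The median member level was 0 CPM in fiber and in vessel, so the higher sums rest largely on few loci. Among members with a vessel mean of at least 1 CPM, 1 library held over 90% of the vessel sum at 31 of 73 (42.5%, against 23.2% of all loci at that level). In fiber it was so at 22 of 64 (34.4% against 12.3%) and in mix at 18 of 96 (18.8% against 2.09%). In the 4 tissues other than root that number was 0 in shoot tip, leaf and xylem and 2 of 63 in phloem. Members at that level were not matched to all loci on level. The part of amplification in this was not tested.

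At single loci the captures fell on both sides of xylem. Every fiber library lay above every xylem library at 15 of 258 members with a count (background 9.49% of such loci) and below at 100 (36.1%). For vessel the counts were 13 of 251 above (7.89%) and 91 below (33.4%), and for mix 42 of 260 above (22.5%) and 56 below (28.9%). The shares of members above were 5.81%, 5.18% and 16.2% and those below 38.8%, 36.3% and 21.5%, and xylem had been capped by the rule.

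A mean of at least 10 CPM was reached by 19 members in fiber, 37 in vessel and 27 in mix. The restriction to root did not extend to the captures at 54 members, where some capture mean was above 1/16 of the root mean. The other 250 members were at least 16-fold higher in root than in all 7 other groups (background 5.08% of the 4926 loci, which by the rule are these same 250).

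At 3 members a capture mean was at or above the root mean, named here after their values were seen. Potri.004G140800 stood at 171, 158 and 147 CPM in root, at 234, 171 and 111 CPM in mix, at 90.2, 103 and 17.3 CPM in fiber, and at 0.260, 0.219 and 0 CPM in xylem tissue. Potri.004G153100 stood at 80.3, 77.6 and 62.3 CPM in root, at 183, 46.2 and 38.4 CPM in vessel, and at 2.60, 2.34 and 1.89 CPM in xylem tissue. Root and mix overlapped at the first locus and root and vessel at the second. At the third, Potri.009G114400, every vessel library lay above every root library.

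The member with the highest fiber mean was Potri.001G382400, at 116, 70.2 and 43.0 CPM in fiber and 219, 223 and 164 CPM in root. In vessel it stood at 6.23, 27.2 and 0.526 CPM, in mix at 67.0, 29.0 and 27.7 CPM, and in xylem tissue at 4.32, 12.2 and 4.51 CPM. Its fiber libraries lay above all vessel and xylem libraries and overlapped the mix.

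The captures were compared with each other by edgeR's quasi-likelihood test on the 9 capture libraries. Only 86 of the 304 members passed the filter on low counts. Between fiber and vessel, 8 of the 86 members differed at an adjusted p below 0.05, where the background was 6.05% of 22828 loci. Fiber was higher at 5 of them (background 2.86%) and vessel at 3 (3.19%), and 37 members had an unadjusted p below 0.05. The median log2 difference of fiber to vessel was -0.76 over the 86 members and 0.00 over all loci tested. The spread between capture libraries was large, with a biological coefficient of variation of 111% against 27.5% in tissues.

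Potri.010G069000, the locus highest in xylem among the 4 tissues above, stood at 128, 239 and 373 CPM in vessel. It was at 0.481, 6.58 and 3.74 CPM in fiber and at 123, 123 and 132 CPM in mix. Vessel and mix lay above fiber without overlap. The log2 difference of fiber to vessel was -6.02 ± 0.80 (SE, edgeR quasi-likelihood test, adjusted p = 0.00351), and that of fiber to mix was -5.01 ± 0.77 (adjusted p = 0.0235).

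Potri.009G114400 showed the same order, with 345, 172 and 375 CPM in vessel, 161, 126 and 329.7 CPM in mix, and 6.97, 22.5 and 7.67 CPM in fiber. In root it stood at 93.7, 84.1 and 58.2 CPM and in xylem tissue at 2.03, 4.75 and 3.69 CPM. The vessel and mix libraries overlapped each other and lay above fiber, and the vessel libraries lay above root. The log2 difference of fiber to vessel was -4.51 ± 0.61 (edgeR quasi-likelihood test, adjusted p = 0.00354) and that of fiber to mix -3.91 ± 0.59 (adjusted p = 0.0222).

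Potri.016G034800 went the other way, at 42.9, 53.0 and 17.5 CPM in fiber and with 3 counts in all over the vessel libraries (0.154, 0 and 0.0877 CPM). Mix stood at 11.9, 55.2 and 8.54 CPM, overlapping fiber, and xylem tissue at 3.54, 4.60 and 2.21 CPM. In root it stood at 881, 795 and 526 CPM. Fiber differed from vessel by edgeR's quasi-likelihood test with an adjusted p of 0.0081, and no fold is given against so few counts. The locus was named after its values were seen, as 1 of the 3 members called in every alternative fit of this contrast.

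**Figure D5:**
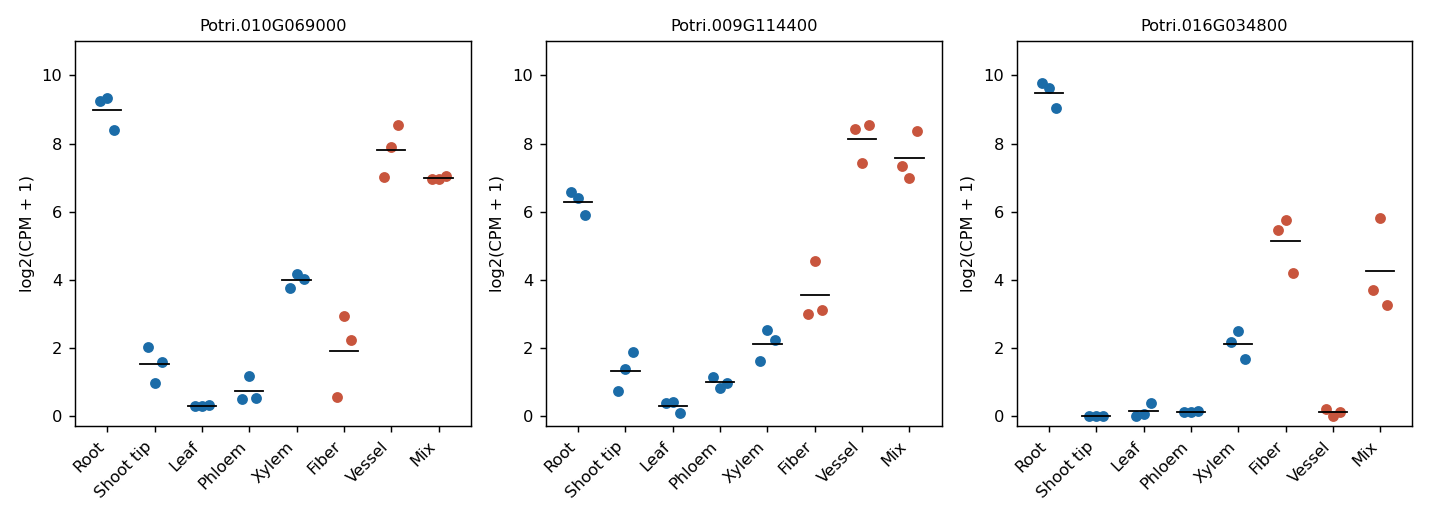
Level as log2(CPM + 1) of the 3 members called between fiber and vessel in every alternative fit, in all 24 libraries (points; blue, dissected tissue; red, amplified laser captures; bars, means of 3 on this scale). Vessel and mix lie above fiber at Potri.010G069000 and Potri.009G114400, and fiber lies above vessel at Potri.016G034800.

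Of the other 5 members called between fiber and vessel, 3 were the adjacent loci from Potri.018G041400 to Potri.018G041600, whose capture counts were identical and may stand for 1 set of reads. Their level was 2.52, 3.65 and 13.5 CPM in fiber, at least 75.3-fold above the floor of 3 counts over the vessel libraries, where they had no count (edgeR quasi-likelihood test, adjusted p = 0.0476). Potri.005G016600 stood at 171, 0.900 and 40.8 CPM in vessel and at 0.120, 0.313 and 0.0959 CPM in fiber, with a log2 difference of fiber to vessel of -8.50 ± 2.14 (edgeR quasi-likelihood test, adjusted p = 0.0417). The vessel libraries of this locus were far apart, with replicate 2 near the fiber level, and still lay above fiber. The fifth stood at 29.0, 0.626 and 51.5 CPM in fiber and had 2 counts in all over the vessel libraries (edgeR quasi-likelihood test, adjusted p = 0.0346). Its identifier is Potri.003G191200, named after its values were seen, and its call was kept in 1 of the 6 fits that left out a fiber or vessel library, that without fiber replicate 2. None of the 5 was called in every alternative fit. The call of Potri.018G041400 was lost without any 1 of the fiber or vessel libraries, and that of Potri.005G016600 without any 1 of them except vessel replicate 2.

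Between fiber and mix, 2 of the 86 members were called, the loci Potri.010G069000 and Potri.009G114400 given above, both higher in mix (background 0.346% of 22828 loci, 0.28% higher in mix and 0.0657% higher in fiber). The median log2 difference of fiber to mix was -1.50 over the 86 members and -0.14 over all loci, and 19 members had an unadjusted p below 0.05. With 1 fiber or mix library left out in turn between 0 and 1 members were called. Potri.010G069000 was then called only without fiber replicate 1, and Potri.009G114400 only without fiber replicate 2 or mix replicate 2. Between vessel and mix, edgeR's quasi-likelihood test called 0 of the 86 members (background 0.0131%), with 18 members at an unadjusted p below 0.05 and 11 members called by DESeq2. The median log2 difference of vessel to mix was -0.17 over the members and -0.11 over all loci, and the latter was 0.04 with the RLE scaling.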

How the data were processed

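RNA-seq of 24 libraries in 8 groups of 3 was analysed. Raw, whole-number counts per locus were deposited in 1 table. Per the submitters' processing notes TopHat was used, in a version they do not state. No source used here gives the counting tool, genome build, annotation or strand setting, so near-identical copies and antisense neighbours are uncertain. Each column matched 1 sample title and 0 columns had no sample. Of the identifiers, 0 matched the reference table (assembly P.trichocarpa_v4.1), so lists by product name and marker genes were not applied and no sequences were used.

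CPM values were computed from column totals. Members were chosen as described above. Tests used R 4.3.3 with edgeR 4.0.16 (filterByExpr, TMM, quasi-likelihood test), fitted to the 15 tissue or the 9 capture libraries, with adjustment over all loci tested. A locus was called at an adjusted p below 0.05 and an absolute log2 difference of at least 1, and standard errors were the absolute log2 difference divided by the square root of F. Alternatives used DESeq2 1.42.0, other scalings and filters, a replicate block and fits without single libraries. The procedure was tested on simulated data. Plots came from matplotlib 3.10.9 under Python 3.11.15.

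Named loci were the 2 highest in root, the 2 nearest on each side of the 16-fold threshold, the leading 2 called members of each direction (for the 4 tissues, the smallest 2 adjusted p-values per highest tissue), the highest in each capture group, and the longest runs. Others were named after their values were seen, where so stated. The members, lists and tests were chosen with earlier results of these data known. Chi-square values per degree of freedom between replicate libraries ran from 5.89 to 244, beyond sampling noise in every group. Each library was counted on its own, though such values do not show that libraries came from separate trees.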

Additional observations from a re-analysis of the deposited data

How the results depend on the processing

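The number of root-restricted loci was 207 with TMM-scaled library sizes, 419 at 8-fold, 232 at 32-fold, and 237 when the lowest root library was set against the highest other library. It was 819 with a root level of at least 10 CPM and 60 with at least 200 CPM, and 281 to 328 with single libraries left out. The share that was 16-fold in left-out replicates ran from 76.3% to 90.8%.

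Members called among the 4 tissues were 132 without the root libraries, 201 to 208 under the other fits and 188 to 199 with single libraries left out. Scaling to column totals, chosen after seeing the data, gave 58 highest in shoot tip, 51 in leaf, 28 in phloem and 69 in xylem. Potri.T134000 was placed highest in another tissue without phloem replicate 2 (log2 difference 3.80, range 3.78 to 4.19 with single libraries left out), as was Potri.011G070100 without shoot tip replicate 1 (4.30, range 4.30 to 5.05).

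Between fiber and vessel DESeq2 called 27 members, a fit of all 24 libraries 74, and single libraries left out gave 3 to 10. Between fiber and mix DESeq2 called 7, all 24 libraries 39, and single libraries left out gave 0 to 1. Between vessel and mix no filter on low counts gave 1, DESeq2 11, all 24 libraries 51, and single libraries left out 0 to 1. The fit of all libraries takes 1 spread for tissues and captures, whose own spreads were 27.5% and 111%. The part of this in the number of calls was not tested, nor were the causes of the other changes.

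Libraries of equal replicate number were not taken as pairs, since not every pair of groups met the bar. All correlations of deviations were above 0.1 in 3 of 6 pairs of tissues, those with xylem, and in 0 of 3 pairs of captures. With the replicate number as a block the calls were 204 among tissues, 3 between fiber and vessel, 2 between fiber and mix and 0 between vessel and mix. Low counts in the captures limit what can be said of members not detected there.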
